A study of Mus musculus with 2 samples.

Results

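The colony-stimulating factors and their receptors were examined as 7 genes, selected by symbol from the 27998 genes of both raw count tables: the ligand genes Csf1 and Csf2 and the receptor genes Csf1r, Csf2ra, Csf2rb, Csf3r and Flt3. All 7 were present in both tables. Each was read in cells gated by the unique molecular identifiers (UMIs, one per captured RNA molecule) of marker genes, and no member was a gate marker, although 1 rule for T and NK cells was added after Csf1r values in them had been seen.

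Colony-stimulating factors are secreted proteins that control the survival, division and function of myeloid cells. CSF1 binds CSF1R, a receptor tyrosine kinase on which many macrophages depend. GM-CSF, the product of Csf2 and typically a product of activated lymphocytes, binds a specific alpha chain (Csf2ra) paired with a shared beta chain (Csf2rb) that signals through JAK2 and STAT5. The G-CSF receptor (Csf3r) is best known from neutrophils, and FLT3, a kinase related to CSF1R, from dendritic cells and their precursors.

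The cells came from TSA mammary adenocarcinoma tumors grown subcutaneously in female Balb/c mice (6 to 15 weeks of age for the study's mice). One group drank untreated water and the other received 0.5% nicotinamide (NAM, a form of vitamin B3) in the water for 10 days, starting once tumors measured 0.25 cm2. Tumors of 3 mice per group were dissociated and pooled, CD45+ cells were enriched on magnetic beads, and 1 droplet library per group was made (10x Genomics, 3′ end counting). The transplanted line is the only tumor here. The bead selection depletes tumor and stromal cells, which can also make these ligands, though some of their transcripts remained in the gated cells.

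With 1 library per group no test was possible. Differences between mice, between preparations and between treatments cannot be told apart, and every 95% interval given here covers counting error only. The libraries held 2922 untreated and 3276 NAM cells, with a median of 9056 and 9128 UMIs per cell and totals of 29161823 and 32090120 UMIs. They shared 11 cell barcodes. Levels are given in counts per 1000000 UMIs of the gated cells (CPM), and ratios as log2 of NAM over untreated CPM.

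The 14 gates took in 5858 of 6198 cells. Cells low in C1q transcripts were assigned to 3 T cell gates (CD8, regulatory-like and other), natural killer (NK) cells, type 1 dendritic cells (Xcr1, Clec9a), mature dendritic cells (Ccr7, Fscn1), Cd209a dendritic cells, Ly6c2 monocytes and Tgfbi intermediate cells. Cells high in C1q were macrophages, split into Vcam1, proliferating, interferon-high and other gates, and cells high in Ctsk and Acp5, genes of osteoclasts, formed their own gate. The independent check markers found in the files were higher inside their gate and seen in at least 10% of its cells, except Tyrobp in NK cells, Lyz2 in Tgfbi intermediate cells and Calcr in Ctsk Acp5 cells. No B cell was gated, and neutrophils numbered 3 untreated and 0 NAM cells.

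Csf1, which encodes macrophage colony-stimulating factor, was highest in T cells. It reached 47.1 CPM in untreated T cells (51 UMIs in 34 of 201 cells, interval 35.0 to 61.9) and 52.0 CPM in NAM T cells (73 UMIs in 50 of 264 cells, 40.7 to 65.4). In macrophages it stood at 2.93 CPM (61 UMIs, 2.24 to 3.76) and 2.53 CPM (58 UMIs, 1.92 to 3.27). The T cell and macrophage intervals did not overlap in either library.

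Within T cells the Csf1 level was 54.5 and 56.0 CPM in CD8 cells of the untreated and NAM libraries, 40.8 and 46.4 CPM in regulatory-like cells, and 36.2 and 47.4 CPM in other T cells. The intervals of these 3 gates overlapped. No Csf1 UMI was counted in NK cells, 0 of 65 and 0 of 37 cells, which at a limit of 3 counts allows a share of up to 4.62% and 8.11% of cells with a UMI and levels of up to 7.67 and 16.9 CPM. NK cells had median depths near those of T cells (5264 and 4281 against 4521 and 4350 UMIs), and these upper levels lie below the T cell values.

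T cells were 6.88% of the untreated and 8.06% of the NAM library but held 39.5% (31.0 to 48.5) and 48.7% (40.4 to 57.0) of its Csf1 UMIs. Macrophages, at 68.6% and 67.2% of cells, held 47.3% and 38.7%. The intervals of the T cell and macrophage shares overlapped in each library. The UMIs were spread over 99 and 118 cells, and the 5 richest cells held 13.2% and 12.7%.

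Between libraries the Csf1 ratio in T cells was 0.14 (-0.39 to 0.69), and in macrophages -0.21 (-0.75 to 0.33). Of the 5 gates with at least 20 Csf1 UMIs, 1 had an interval that left out 0: proliferating macrophages, where Csf1 was 3.84 CPM (16 UMIs) in the untreated and 1.25 CPM (5 UMIs) in the NAM library, a ratio of -1.62 (-3.42 to -0.11). In this gate 7.63% of 9781 genes were lower by more than 1.5 fold. That interval reached 0 when gate thresholds were raised by 1 UMI. In interferon-high macrophages the values ran the other way, 3.72 CPM (8 UMIs) and 7.09 CPM (17 UMIs), with an interval that included 0 (0.93, -0.36 to 2.35).

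Csf2, the gene of GM-CSF, was sparse: 57 UMIs in 17 untreated cells and 24 UMIs in 15 NAM cells. Over all cells its level was 1.95 CPM (1.48 to 2.53) and 0.748 CPM (0.479 to 1.11), a ratio of -1.39 (-2.14 to -0.67), while 6.89% of 12650 genes were lower by more than 1.5 fold. The difference rested on few cells. The 5 richest cells held 64.9% of the untreated and 58.3% of the NAM UMIs, and the 2 richest untreated cells, with 11 and 10 UMIs, were a cell in the Ly6c2 monocyte gate and a cell with markers of more than 1 type.

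Among gates Csf2 was highest in CD8 T cells, with 33.8 CPM (18 UMIs in 6 of 101 cells, 20.0 to 53.5) untreated and 17.4 CPM (14 UMIs in 5 of 154 cells, 9.52 to 29.2) with NAM, where 1 cell gave 10 of the UMIs. These intervals overlapped those of sparse gates, among them other T cells (1 UMI each, 0.229 to 50.4 and 0.240 to 52.8 CPM). With NAM they also overlapped regulatory-like T cells (2 UMIs, 0.489 to 14.6 CPM). The ratio in CD8 T cells was -0.96 (-2.08 to 0.13), past 1.5 fold with an interval that included 0, while 21.8% of 5759 genes in this gate were past 1.5 fold in either direction. Thinned to 3000 UMIs per cell, with 22 UMIs left, it was -1.42 and the interval left out 0 (-2.88 to -0.06). Over all T cells it was -0.68 (-1.69 to 0.31), against 19.6% of 7540 genes past 1.5 fold. Macrophages held 10 and 5 Csf2 UMIs, and dendritic cells held none in 74 and 87 cells, which at the same limit of 3 counts allows up to 3.51 and 3.29 CPM.

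**Figure D1:**
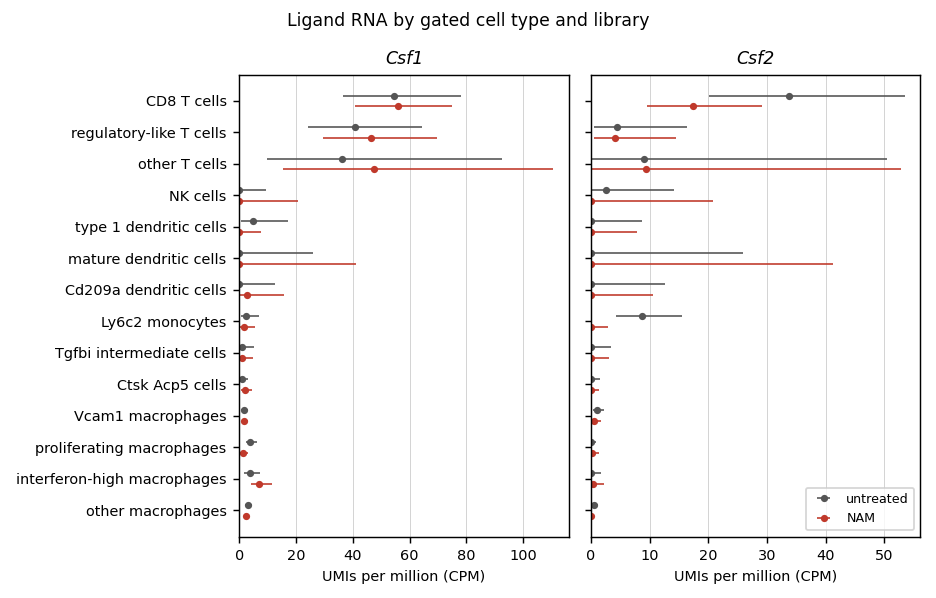
Level of Csf1 and Csf2 in CPM (horizontal axis) for each of the 14 gated cell types (rows), as 1 point per library with its exact 95% Poisson interval, untreated in grey and NAM in red. Csf1 lies at 36.2 to 56.0 CPM in the T cell gates and at or below 7.09 CPM in the macrophage gates.

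Other ligands of the same receptors were distributed differently. Csf3, the gene of G-CSF, had 166 UMIs in 65 untreated cells and 76 UMIs in 28 NAM cells, and none of them in T, NK or dendritic cells. In Ly6c2 monocytes it was 36.2 CPM (46 UMIs) and 9.29 CPM (12 UMIs), a ratio of -1.96 (-3.01 to -1.02), and in macrophages 4.46 and 1.83 CPM, a ratio of -1.28 (-1.85 to -0.74). Its interval lay below 0 in 3 of the 4 gates with at least 20 UMIs, and in Vcam1 macrophages it included 0 (-0.49, -1.42 to 0.42). In macrophages 6.90% of 11912 genes, and in monocytes 12.1% of 6795 genes, were lower by more than 1.5 fold. As with Csf2 the UMIs were concentrated, with a single untreated monocyte holding 21. In Tgfbi intermediate cells, 1 of the 3 gates below 0, 1 untreated cell held 15 of 22 UMIs, against 4 UMIs in the NAM library. In Vcam1 macrophages 1 NAM cell held 11 of 19. The Csf3 ratios were not recomputed without the richest cells, and the share of all genes with an interval below 0 is not given.

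Flt3l, the ligand of FLT3, was highest in NK cells (69.0 and 67.8 CPM) and T cells (36.9 and 46.3 CPM), with no ratio interval that left out 0 in any of its 8 gates. Il34, the other ligand of CSF1R, had 11 UMIs in each library. Il5, whose receptor uses the shared beta chain, had 43 UMIs in the untreated library, 38 of them in 1 regulatory-like T cell, and 0 in the NAM library.

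**Figure D2:**
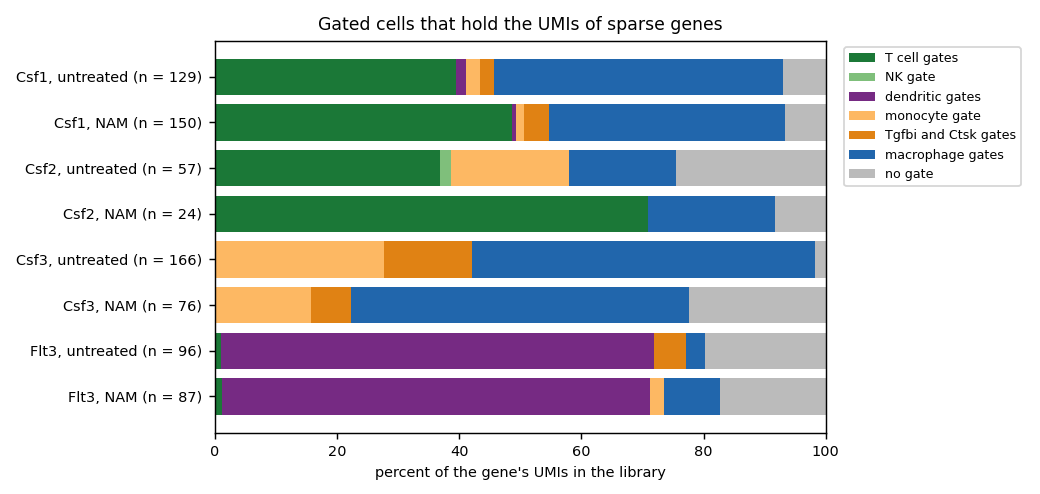
Percent of the UMIs of Csf1, Csf2, Csf3 and Flt3 (rows, by library, n = UMIs in that library) held by T cell, NK, dendritic, monocyte, Tgfbi and Ctsk, macrophage and ungated cells (colors). T cells hold 39.5% and 48.7% of Csf1, and dendritic cells hold 70.8% and 70.1% of Flt3.

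The sequence upstream of the ligand genes is shown because both had their highest level in T cells, in which NF-kB and NFAT are known regulators of cytokine genes. The 250 bases before the RefSeq start (GRCm38.p6, minus strand for both) lie at chr3:107760470-107760719 for Csf1 and chr11:54249900-54250149 for Csf2. The search covered 5 motifs on both strands, and capitals mark every match: NF-kB (GGGA and TTTCC with any 1 base between them), NFAT (TGGAAA), AP-1 (TGANTCA), C/EBP (TTGCNNAA) and PU.1 (GAGGAAG).
Csf1: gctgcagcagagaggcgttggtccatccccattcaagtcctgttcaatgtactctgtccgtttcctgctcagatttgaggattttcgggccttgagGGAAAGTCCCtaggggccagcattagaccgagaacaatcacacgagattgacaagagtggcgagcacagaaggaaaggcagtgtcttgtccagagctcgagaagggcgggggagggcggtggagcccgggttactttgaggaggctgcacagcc
Csf2: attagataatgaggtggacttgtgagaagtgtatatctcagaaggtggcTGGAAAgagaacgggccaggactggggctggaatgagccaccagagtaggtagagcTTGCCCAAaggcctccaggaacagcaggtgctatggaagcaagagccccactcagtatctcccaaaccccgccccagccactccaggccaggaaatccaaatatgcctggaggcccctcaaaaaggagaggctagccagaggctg
The Csf1 window held 1 NF-kB match, on the reverse strand, beginning 154 bases before the start. The Csf2 window held 1 NFAT match at 201 bases and 1 C/EBP match at 145 bases. In GENCODE vM21 the gene spans 54247271 to 54249667 on chromosome 11, so its 5′ start on the minus strand is 54249667. The whole window lies upstream of that start, and the bases between them were not searched. The lack of NF-kB and AP-1 letters describes this window only. Of 32851 promoter entries, 0.356% held the NF-kB letters, 18.6% the NFAT letters, 9.56% the C/EBP letters, 6.75% the AP-1 letters and 10.6% the PU.1 letters. A match describes letters and not a bound site.

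Csf1r, the receptor of CSF1, was found in every monocyte and macrophage gate. In the untreated library its level was 648 CPM (616 to 682) in Ctsk Acp5 cells and 646 CPM (624 to 668) in Vcam1 macrophages, which overlapped, and 553 CPM (538 to 568) in other macrophages. It was 472 CPM in interferon-high and 458 CPM in proliferating macrophages, whose intervals overlapped. Below them stood Tgfbi intermediate cells (385 CPM, 349 to 424), Ly6c2 monocytes (299 CPM, 270 to 330) and Cd209a dendritic cells (117 CPM, 81.1 to 164), each apart from the one above.

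The NAM library had these gates in the same order. Ctsk Acp5 cells had 651 CPM (620 to 683), apart from Vcam1 macrophages at 552 CPM (533 to 573), which stood apart from other macrophages at 472 CPM (459 to 485). Interferon-high and proliferating macrophages followed at 426 and 405 CPM, then Tgfbi intermediate cells at 378 CPM and Ly6c2 monocytes at 335 CPM, each overlapping the next. Cd209a dendritic cells stood apart at 125 CPM. Type 1 dendritic cells held 4 and 6 Csf1r UMIs (9.47 and 12.7 CPM, 2.58 to 24.2 and 4.66 to 27.6), the lowest of the 14 gates in both libraries, with intervals that overlapped those of CD8 T cells.

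Csf1r UMIs were also counted in lymphocytes, along with C1q transcripts of macrophages. CD8 T cells held 18.8 and 16.2 CPM, or 3.43% and 3.41% of the macrophage level, where C1q transcripts stood at 2.35% and 2.28%. In NK cells Csf1r was 4.66% and 3.57% of the macrophage level and C1q 2.85% and 2.47%, and over all T cells Csf1r was 6.56% and 3.76% and C1q 2.59% and 2.32%. Regulatory-like T cells had 61.2 CPM (27 UMIs) untreated and 20.2 CPM (10 UMIs) with NAM, a ratio of -1.60 (-2.81 to -0.51), where 13.7% of 4939 genes were lower by more than 1.5 fold. A single untreated cell held 11 of those UMIs. Over all T cells the level was 36.0 and 17.8 CPM, a ratio of -1.02 (-1.80 to -0.25), where 12.0% of 7540 genes were lower by more than 1.5 fold. Both intervals included 0 without the 5 richest cells of each library, and also with cells thinned to 3000 UMIs. At 3000 UMIs per cell, 6.47% of untreated and 5.68% of NAM T cells held a Csf1r UMI, against 77.8% and 73.5% of macrophages.

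In macrophages as a whole Csf1r was lower in the NAM library, 548 CPM (538 to 559, 11434 UMIs) against 474 CPM (465 to 483, 10870 UMIs). The ratio was -0.21 (-0.25 to -0.17), or 0.864 fold. The interval lay below 0 in each of the 4 macrophage gates, from -0.15 (-0.27 to -0.02) in interferon-high to -0.23 (-0.28 to -0.17) in other macrophages. With each cell thinned to 3000 UMIs the count was 2 of 4 gates. No share of all genes with an interval below 0 is given to compare with these counts.

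The size was small beside the spread of other genes. No Csf1r ratio in a macrophage gate was past 1.5 fold, as 10.0% of 11912 genes in macrophages were, and the macrophage ratio was not past 1.2 fold, where 20.7% of genes were lower. In the remaining monocyte-lineage gates the interval included 0, with a ratio of 0.00 (-0.10 to 0.11) in Ctsk Acp5 cells, -0.03 (-0.23 to 0.17) in Tgfbi intermediate cells and 0.17 (-0.04 to 0.37) in Ly6c2 monocytes. The median ratio of all genes was -0.04 in macrophages and -0.01 in Ctsk Acp5 cells.

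**Figure D3:**
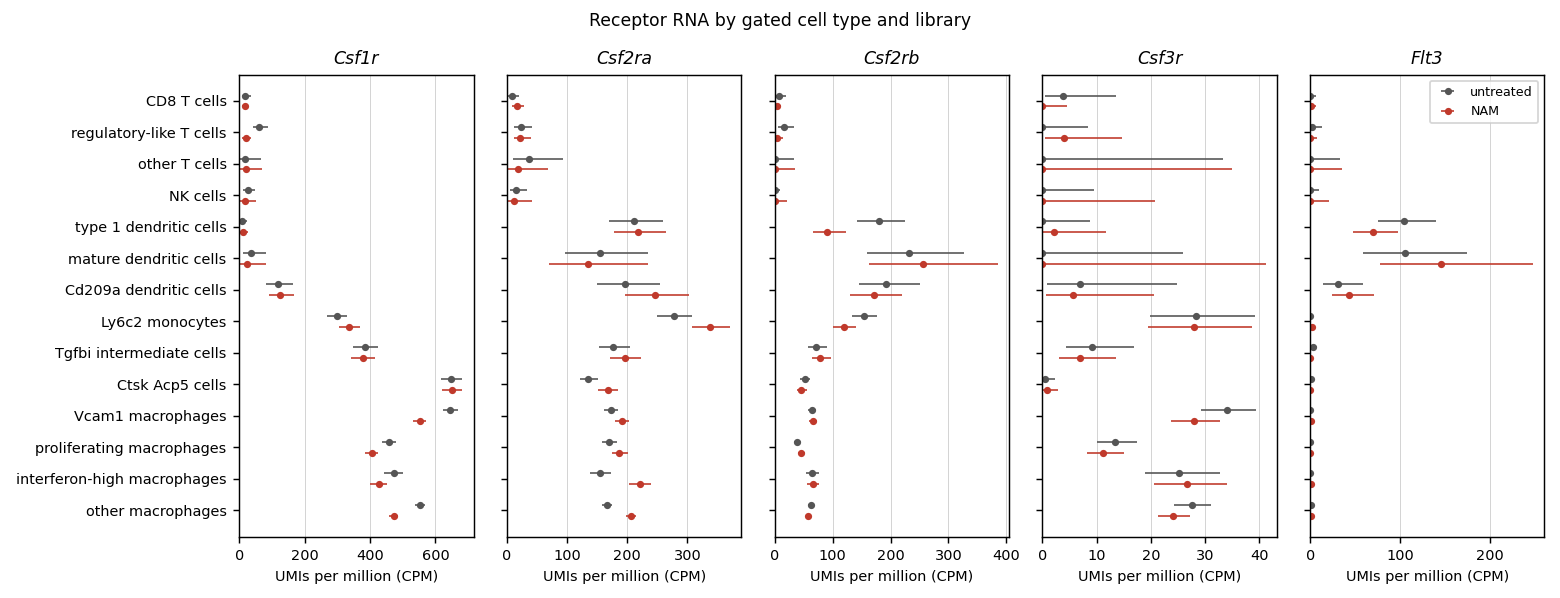
Level of the 5 receptor genes in CPM (horizontal axes, each with its own scale) for each of the 14 gated cell types (rows), as 1 point per library with its exact 95% Poisson interval, untreated in grey and NAM in red. Csf1r is highest in macrophages and Ctsk Acp5 cells, Csf2ra in Ly6c2 monocytes, Csf2rb in mature dendritic cells, Csf3r in macrophages and monocytes, and Flt3 in dendritic cells.

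Csf2ra, the alpha chain of the GM-CSF receptor, was highest in Ly6c2 monocytes. It was 278 CPM (249 to 308) in untreated and 338 CPM (307 to 371) in NAM monocytes, and only in the NAM library was this level apart from the next gate. Type 1 and Cd209a dendritic cells had 211 and 196 CPM untreated, and 218 and 245 CPM with NAM. Macrophage gates lay between 155 and 172 CPM untreated and between 187 and 220 CPM with NAM, and Ctsk Acp5 cells had 135 and 167 CPM. T cells held 16.6 and 18.5 CPM, or 9.94% and 9.23% of the macrophage level, where C1q transcripts stood at 2.59% and 2.32%.

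Csf2ra was higher in the NAM library in macrophages, 167 CPM (162 to 173, 3485 UMIs) against 201 CPM (195 to 207, 4602 UMIs), a ratio of 0.26 (0.20 to 0.33). The share of all genes with an interval that left out 0 is not given, so the count of gates has no background. Intervals lay above 0 in 5 of the 11 gates with at least 20 UMIs and below 0 in none. Those gates were Ly6c2 monocytes (0.28, 0.08 to 0.49), Ctsk Acp5 cells (0.31, 0.10 to 0.52) and 3 of the 4 macrophage gates, with the top ratio in interferon-high macrophages (0.51, 0.31 to 0.71; 155 to 220 CPM). The interval in Vcam1 macrophages lay just above 0 (0.14, 0.01 to 0.28), and that in proliferating macrophages included it (0.14, -0.01 to 0.29). With cells thinned to 3000 UMIs the intervals of Ly6c2 monocytes, Ctsk Acp5 cells and Vcam1 macrophages included 0, which left 2 of the 5, and with median-of-ratios size factors that of proliferating macrophages lay above 0.

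No Csf2ra ratio was past 1.5 fold. The macrophage ratio stood just past 1.2 fold, as 10.5% of genes in macrophages were in the same direction, and the monocyte ratio, at 1.22 fold, compared with 22.5% of genes. At 3000 UMIs per cell, 36.6% (34.5 to 38.8) of untreated and 42.3% (40.2 to 44.4) of NAM macrophages held a Csf2ra UMI, and without thinning 72.2% and 78.8% did. In T cells the thinned shares were 4.98% and 4.92%, at median depths of 4521 and 4350 UMIs against 9770 and 9790 in macrophages.

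Csf2rb, the beta chain shared by the receptors of GM-CSF, IL-3 and IL-5, had a different order from its partner. Mature dendritic cells led with 232 CPM (160 to 326) untreated and 257 CPM (163 to 385) with NAM, from 14 cells in each library, and overlapped the next gate in both. Cd209a dendritic cells had 193 and 171 CPM, type 1 dendritic cells 180 and 91.0 CPM, and Ly6c2 monocytes 154 and 119 CPM. Macrophage gates ranged from 39.1 to 64.2 CPM untreated and from 45.9 to 65.9 CPM with NAM, with the lowest value in proliferating macrophages in both libraries.

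In macrophages Csf2rb was 58.0 CPM (54.8 to 61.3) and 58.6 CPM (55.5 to 61.8), a ratio of 0.02 (-0.10 to 0.13). The 4 macrophage gates had ratios of -0.08 to 0.23, each with an interval that included 0. Ly6c2 monocytes were lower with NAM, 154 CPM (133 to 177) against 119 CPM (101 to 140), a ratio of -0.37 (-0.68 to -0.06). Thinned to 3000 UMIs per cell it was -0.33 with an interval that included 0 (-0.76 to 0.11).

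The member ratio farthest from 0 among dendritic gates was Csf2rb in type 1 dendritic cells, the cells that present antigen to CD8 T cells. It was 180 CPM (142 to 225, 76 UMIs in 27 cells) untreated and 91.0 CPM (65.9 to 123, 43 UMIs in 32 cells) with NAM, a ratio of -0.98 (-1.56 to -0.43). This was past 1.5 fold, where 11.4% of 3992 genes were lower and 27.1% were past it in either direction. A few cells carried it: 1 untreated cell held 20 UMIs, and without the 5 richest cells of each library the ratio was -0.54 with an interval that included 0 (-1.54 to 0.44). Without the 5% of cells with the highest UMI totals it was -1.48 (-2.25 to -0.76). The shares of cells with a UMI had overlapping intervals, 55.6% (35.3 to 74.5) and 59.4% (40.6 to 76.3) unthinned, and 25.9% (11.1 to 46.3) and 15.6% (5.28 to 32.8) at 3000 UMIs per cell.

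Csf2rb2 is a neighboring gene on chromosome 15 that encodes another beta chain, specific for IL-3, in mice. Its longest coding transcript shares 892 of 4691 stretches of 50 bases with Csf2rb, and its last 500 bases share 0 of 451. Reads from that 3′ stretch differ between the genes, while reads from shared stretches could have been assigned to either. It had 49 UMIs (57.3 CPM) in untreated and 25 UMIs (27.4 CPM) in NAM dendritic cells, a ratio of -1.07 (-1.82 to -0.34), where 12.9% of 5869 genes were lower by more than 1.5 fold. In the same cells Csf2rb was 193 CPM (165 to 225) and 138 CPM (115 to 164), a ratio of -0.48 (-0.83 to -0.14), and -0.13 when cells were thinned to 3000 UMIs. In macrophages Csf2rb2 was 30.7 and 28.1 CPM (-0.13, -0.29 to 0.03), and in 1 of the 4 macrophage gates, other macrophages, it was lower, 33.9 and 26.6 CPM (-0.35, -0.58 to -0.11).

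A GM-CSF receptor needs both chains, and UMIs of both were found together in monocytes, dendritic cells and macrophages. At 3000 UMIs per cell, 21.1% (15.7 to 27.4) of untreated and 18.6% (13.7 to 24.3) of NAM Ly6c2 monocytes held a UMI of Csf2ra and of Csf2rb, as did 17.6% and 17.2% of dendritic cells. By gate the shares were 24.2% (11.1 to 42.3) and 24.4% (12.4 to 40.3) in Cd209a, 21.4% (4.66 to 50.8) in mature cells of each library, and 7.41% (0.910 to 24.3) and 6.25% (0.766 to 20.8) in type 1 dendritic cells, with overlapping intervals. Tgfbi intermediate cells had 10.8% and 11.4%. In macrophages the shares were 6.69% (5.63 to 7.87) and 6.86% (5.84 to 7.99). T cells had 0 of 201 and 0 of 264.

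**Figure D4:**
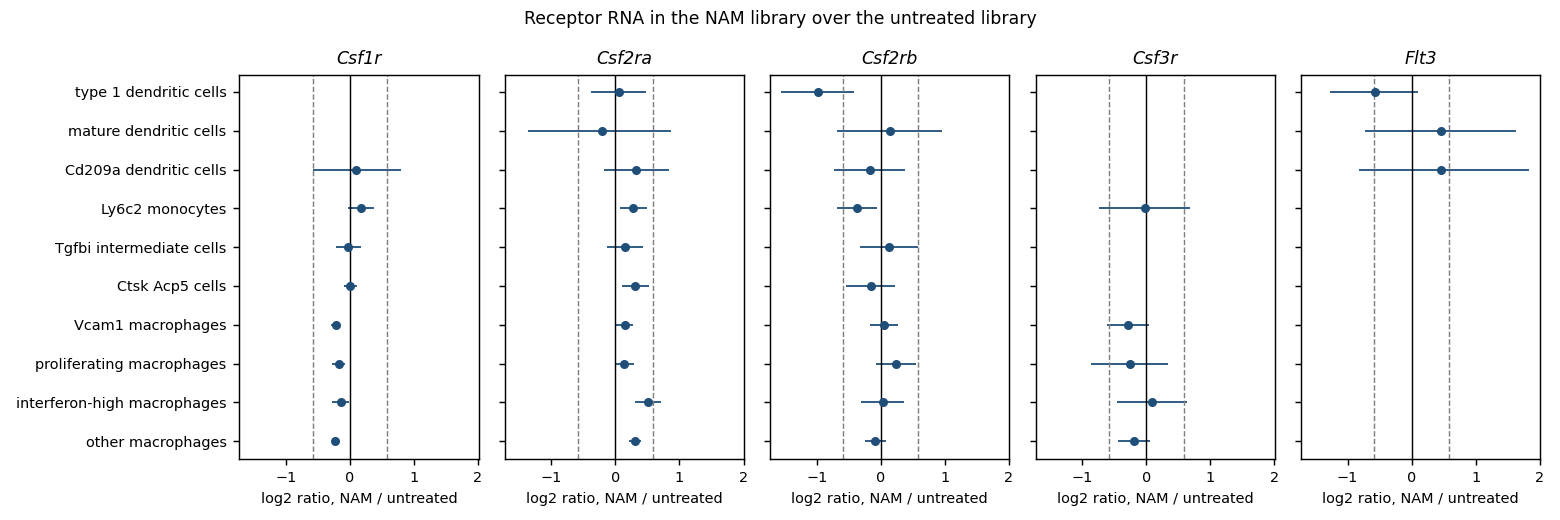
Log2 ratio of NAM over untreated CPM (horizontal axis) of the 5 receptor genes in the dendritic, monocyte and macrophage gates (rows) with at least 20 UMIs, as points with exact 95% intervals for counting error. The solid line marks 0 and the dashed lines 1.5 fold; Csf1r lies left of 0 in the 4 macrophage gates, Csf2ra right of 0 in most gates, and Csf2rb beyond the left dashed line in type 1 dendritic cells.

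Csf3r, the G-CSF receptor, was highest in macrophages and monocytes among the 14 gates. Its level in neutrophils was not assessed, since 3 such cells were gated. In the untreated library Vcam1 macrophages had 34.1 CPM (29.2 to 39.5), Ly6c2 monocytes 28.3 CPM (19.8 to 39.2), other macrophages 27.6 CPM and interferon-high macrophages 25.1 CPM, with overlapping neighbors. Proliferating macrophages stood apart at 13.4 CPM (10.1 to 17.4), and Ctsk Acp5 cells held 1 UMI (0.422 CPM). The NAM values were 28.0, 27.9, 24.1, 26.7, 11.2 and 0.788 CPM for the same gates in that order.

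The Csf3r and Csf1r patterns thus parted in Ctsk Acp5 cells, which were at or near the top for Csf1r and near 0 for Csf3r. Over all macrophages Csf3r was 26.1 CPM (23.9 to 28.4, 544 UMIs) and 23.0 CPM (21.1 to 25.1, 528 UMIs), a ratio of -0.18 (-0.36 to -0.01). No single gate of the 5 with at least 20 UMIs had an interval that left out 0, and with size factors set to the median gene the macrophage interval included 0. In Ly6c2 monocytes it was -0.02 (-0.73 to 0.69).

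Flt3, the receptor of FLT3 ligand, was found mainly in the dendritic gates. It was 104 CPM (75.7 to 140, 44 UMIs) and 69.9 CPM (48.1 to 98.1, 33 UMIs) in type 1, 106 and 145 CPM in mature, and 31.0 and 42.8 CPM in Cd209a dendritic cells. Macrophages had 0.144 and 0.349 CPM (3 and 8 UMIs), and Ly6c2 monocytes 0 and 2 UMIs. Dendritic gates, 2.53% and 2.66% of cells, held 70.8% and 70.1% of Flt3 UMIs, and ungated cells held 19.8% and 17.2%.

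No Flt3 ratio had an interval that left out 0. It was -0.58 (-1.27 to 0.11) in type 1, 0.46 (-0.73 to 1.63) in mature and 0.46 (-0.82 to 1.84) in Cd209a dendritic cells, and -0.25 (-0.77 to 0.27) over the 3 gates. Leaving out the 5% of cells with the most UMIs moved the type 1 value to -0.78 (-1.56 to -0.02). In dendritic cells 23.3% of genes were past 1.5 fold in either direction.

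The upstream windows of Csf2ra and Flt3 are shown as those of a receptor found across myeloid cells and of one found in dendritic cells. They lie at chr19:61228419-61228668 and chr5:147400490-147400739 (GRCm38.p6, RefSeq, minus strand), and capitals mark matches to the same 5 motifs. PU.1, encoded by Spi1, is a transcription factor known to act on myeloid receptor genes.
Csf2ra: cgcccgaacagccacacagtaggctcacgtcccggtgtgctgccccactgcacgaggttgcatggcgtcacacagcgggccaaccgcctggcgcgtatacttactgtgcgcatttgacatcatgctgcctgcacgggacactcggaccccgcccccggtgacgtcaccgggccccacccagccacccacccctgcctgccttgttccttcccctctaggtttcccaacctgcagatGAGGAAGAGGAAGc
Flt3: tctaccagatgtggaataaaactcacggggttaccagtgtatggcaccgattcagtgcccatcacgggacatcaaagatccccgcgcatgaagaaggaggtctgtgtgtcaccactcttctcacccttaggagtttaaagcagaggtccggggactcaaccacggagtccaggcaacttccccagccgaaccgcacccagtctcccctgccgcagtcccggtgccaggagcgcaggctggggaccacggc
The Csf2ra window held 2 overlapping PU.1 matches, beginning 14 and 8 bases before the start, and the Flt3 window held none of the 5 motifs. The windows of Csf3r and Csf2rb2 held 1 PU.1 match each, at 86 and 168 bases. RefSeq and GENCODE starts differ for Csf3r, whose match lies inside the GENCODE gene. They also differ for Csf2ra, whose matches overlap the 5′ start of the GENCODE gene on the minus strand. In GENCODE vM21 the genes span 61223957 to 61228429 on chromosome 19 (Csf2ra), 147330741 to 147400489 on chromosome 5 (Flt3), 126024550 to 126044440 on chromosome 4 (Csf3r), 78325752 to 78353847 on chromosome 15 (Csf2rb) and 107741048 to 107760469 on chromosome 3 (Csf1).

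Genes whose pattern was most like a member's were named from 26 values, 13 gates in 2 libraries, which share library and depth, so correlations are descriptions. Csf1 was most like Cd3e and Cd3d, gate markers of T cells, and then Bcl11b, Cd6 and Dusp14 (Pearson r = 0.98 to 0.96 on log2 of CPM plus 10). Csf1r was most like Pltp, Sirpa, Ctsa, Clec4a2 and Dok3 (r = 0.97 to 0.96). Csf2ra was most like Plekho1, Ifitm2, Ifngr2, Plekho2 and Sh3bgrl (r = 0.95 to 0.94). Csf2rb was most like Atox1, Csf2rb2, Myadm, Skap2 and H2-DMb1 (r = 0.97 to 0.94). Csf3r was most like C3, Cmklr1, Adap2, Slc7a7 and Dram1 (r = 0.96 to 0.94), and Flt3 like Cbfa2t3, Mctp1, Plet1, Hepacam2 and BC035044 (r = 0.97 to 0.92). These lists depended on the scale: by Spearman's rank correlation 0 of the 5 genes were kept for Csf1, Csf2ra and Csf2rb, 1 for Csf1r and Flt3, and 3 for Csf3r.

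Other genes of the pathway were read from lists of ligands, receptors, signaling genes, inhibitors, transcription factors and response genes. Of 12 signaling genes, 0 were higher and 1 lower by more than 1.5 fold in macrophages, 0 and 3 of 10 in Ly6c2 monocytes, 0 and 4 of 9 in T cells and 0 and 5 of 10 in dendritic cells. Over all genes the lower shares were 6.90%, 12.1%, 12.0% and 12.9% for these cells in that order. Jak2, the kinase that the beta chain recruits, was lower in each: 18.9 against 10.99 CPM in macrophages (-0.79, -1.02 to -0.55), 59.0 against 27.1 CPM in monocytes (-1.12, -1.74 to -0.52), 102 against 47.1 CPM in dendritic cells (-1.11, -1.67 to -0.57) and 43.4 against 24.2 CPM in T cells (-0.84, -1.52 to -0.17). Grb2, an adaptor of CSF1R, was also lower in each, with a ratio of -0.56 in macrophages (-0.62 to -0.49), -1.16 in monocytes (-1.43 to -0.90), -1.11 in dendritic cells (-1.41 to -0.81) and -0.94 in T cells (-1.25 to -0.63). Stat5b was 10.6 and 10.7 CPM in macrophages, and Stat5a 8.30 and 5.67 CPM (-0.55, -0.89 to -0.21).

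Among 13 inhibitors with at least 20 UMIs in macrophages, 1 was higher and 0 lower by more than 1.5 fold, against 3.13% and 6.90% of all genes. In T cells 0 were higher and 4 lower of 13, against 7.53% and 12.0% of all genes, and in Ly6c2 monocytes 1 was higher and 3 lower of 11, against 7.86% and 12.1%. The gene higher in macrophages was Socs1, a feedback inhibitor of JAK kinases, at 38.2 and 70.7 CPM (0.89, 0.76 to 1.01). It was also higher in Ly6c2 monocytes (72.3 and 147 CPM) and dendritic cells (33.9 and 98.6 CPM), and was 108 and 127 CPM in T cells (0.23, -0.11 to 0.58). Cish, a target of STAT5, was 4.51 and 3.71 CPM in macrophages (-0.28, -0.72 to 0.16). Spi1 was 484 and 514 CPM in macrophages (0.09, 0.05 to 0.13) and 606 and 517 CPM in Ly6c2 monocytes (-0.23, -0.38 to -0.08).

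Of 9 listed STAT5 and GM-CSF response genes with at least 20 UMIs in macrophages, 0 were higher and 3 lower by more than 1.5 fold (Ccl17, Ccl22 and Il4i1), against 3.13% and 6.90% of all genes, with a median ratio of -0.42 against -0.04 over all genes. In Ly6c2 monocytes 0 were higher and 2 lower of 5, against 7.86% and 12.1% of all genes. T cells had 1 higher and 1 lower of 6, against 7.53% and 12.0%. In dendritic cells 1 of 7 was higher and 1 lower, against 10.4% and 12.9% of all genes; the higher one was Ccl17, a chemokine gene, with 23.4 and 137 CPM (2.55, 1.86 to 3.31). Of 8 CSF1 response genes in macrophages none was past 1.5 fold, where 10.0% of all genes were. The immediate early genes Egr1 (95.7 and 138 CPM) and Egr2 (45.4 and 66.9 CPM) had ratios of 0.53 (0.44 to 0.61) and 0.56 (0.44 to 0.68), and the other 6 ratios were below 0, with a median of -0.15 against -0.04 over all genes. In Ly6c2 monocytes 1 of the 8 was higher and 1 lower by more than 1.5 fold, against 7.86% and 12.1% of all genes, with a median of 0.16 against -0.02.

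Transcripts of other cells were compared between libraries for the gates that carry these results. Hemoglobin transcripts stood at 15.8 and 310 CPM in macrophages, 17.3 and 4273 CPM in Ly6c2 monocytes and 15.0 and 6555 CPM in CD8 T cells; 8 NAM cells and 1 untreated cell held at least 5 such UMIs, among them 1 NAM CD8 T cell, 1 NAM monocyte and 6 NAM macrophages. Without those cells each of the 18 member intervals in gates or gate groups that left out 0 still did. C1q transcripts in T cells were 437 and 435 CPM, and tumor or stromal markers in macrophages 17.7 and 25.8 CPM. The same markers were 8.84 and 25.5 CPM in interferon-high macrophages, which had the top Csf2ra ratio, and 2.37 and 12.7 CPM in type 1 dendritic cells, which had the lowest Csf2rb ratio. The part of C1q and of tumor or stromal transcripts in the member ratios was not tested.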

How the data were processed

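Raw UMI counts were deposited for both libraries; the authors used Cell Ranger and the mm10 assembly, per the labels. Here cells were gated by summed marker UMIs (C1q sum at least 16 for macrophages, Cd3 sum at least 3 for T cells), with thresholds set after marker UMIs were seen. T or NK cells with at least 30 Ctsk and Acp5 UMIs were set aside as mixed, a rule added after such cells were seen to raise Csf1r in the T cell gates. The members and gene lists were chosen with earlier results of these data known. Macrophages were split into 4 gates, and 1 further marker set planned for them was not used because an item in it is not reported here. Counts were summed per gate and library and divided by the gate total. Exact Poisson intervals were used for levels, exact conditional binomial intervals for ratios, and Clopper-Pearson intervals for shares, all at 95%. Where no UMI was counted, the level or share of cells that 3 counts would give is stated as the limit. Ratios needed at least 20 UMIs over both libraries. For shares each cell was thinned to 3000 UMIs, and 0 cells were below that depth. The lowest cell in the files had 3001 UMIs. Cells with markers of more than 1 type (33 untreated, 54 NAM) and unassigned cells (106, 140) were left out of the gates, and no doublet caller was run. Members and listed pathway genes could be named, and genes named for likeness were the 5 with the highest Pearson correlation among genes with at least 200 UMIs, for members with at least 100. On counts simulated as Poisson draws, 95.6% of macrophage intervals (11912 genes) and 96.4% of T cell intervals (7540 genes) held the true ratio. Of simulated 2 fold changes, 91.0% and 74.5% were recovered. The draws follow the model that the intervals assume, so coverage near 95% was built in. UMIs concentrated in single cells and differences between pools were not simulated. Alternatives were other size factors, thinning, leaving out rich or deep or cycling cells, higher thresholds, mean CPM per cell and a 50 UMI minimum. The 1.2 fold share and the run without hemoglobin cells were added after seeing the data. Python 3.11.15, NumPy 2.4.6, SciPy 1.17.1, pandas 2.3.3 and matplotlib 3.10.9 were used. Gene positions are from GENCODE vM21 and promoter sequences from RefSeq, with entries for 5 of the 7 members.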

Additional observations from a re-analysis of the deposited data

How the results depend on the processing

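No paired analysis was possible because each group had 1 library. Of 479 alternative values of member ratios, none reversed a ratio whose interval left out 0, and 11 fell outside the interval as reported. The values under the 50 UMI minimum are among the 479, but they repeat the reported ratio and could not move. Thinned to 3000 UMIs per cell, the ratio of Csf2rb over dendritic cells was -0.13 and 2 of the 4 macrophage gates kept a Csf1r interval below 0. All 11 came from thinning. Of 18 member intervals in gates or gate groups that left out 0, 6 still did after thinning, which leaves fewer UMIs, 17 with raised gate thresholds, 17 with median-of-ratios size factors and 16 without the 5% deepest cells. Leaving out the 5 richest cells of each library kept 12 of 17. The count of 18 has no background, since the share of all genes with an interval that left out 0 is not given. Raised thresholds also put the Csf3r interval of Vcam1 macrophages below 0. Without the 5% deepest cells the Csf1r level of Ctsk Acp5 cells was 698 CPM untreated and 694 CPM with NAM. Few UMIs limit the Csf1, Csf2 and Flt3 ratios, and few cells limit every ratio in the 14 mature dendritic cells of each library.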
